A study of Mus musculus with 3 samples.

Results

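Bulk RNA-Seq counts of 9 transcription factor genes that mark position in the developing jaw were examined in maxillary processes of E10.5 embryos overexpressing *Dlx2*. The genes were *Hand1*, *Hand2*, *Gsc*, *Barx1*, *Pitx1*, *Lhx6*, *Lhx8*, *Msx1* and *Msx2*, taken by GENCODE M21 gene name as known regulators of the mandibular, oral, molar and distal midline fields. All 9 were among the 55401 genes of the count files, and 8 of them averaged 10 counts or more over the libraries (the limit on low counts), as did 17115 genes in all. *Hand1* was the member below that limit. Of the 9, 7 encode homeodomain proteins, whereas *Hand1* and *Hand2* encode basic helix-loop-helix proteins.

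The 3 libraries were made from separate RNA samples of dissected maxillary processes of E10.5 mouse embryos (OE replicates 1, 2 and 3). Each embryo had the genotype *wnt1cre; Rosa26Dlx2/-*, in which a *wnt1*-driven Cre recombinase removes a stop cassette so that the CAG promoter at *Rosa26* expresses a Flag-tagged *Dlx2* in neural crest cells and their descendants. Ectoderm, endothelium and blood in the same samples do not derive from these cells. The number of embryos per sample and the sex of the embryos are not given in the sources used here. No wild-type library was analysed here. The values therefore describe the overexpressing tissue alone, and no difference between genotypes was tested. The targeted gene *Dlx2* stood at 235, 201 and 183 CPM in replicates 1, 2 and 3. Reads of the *Rosa26* transgene and of the endogenous gene were not told apart in these values. CPM is counts per 1000000 counts on genes, scaled by TMM.

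In the first pharyngeal arch, the upper jaw forms from the maxillary process and the lower jaw from the mandibular process, both filled mainly by neural crest mesenchyme. Endothelin 1 from the mandibular ectoderm acts on the receptor Ednra in the mesenchyme and switches on *Dlx5* and *Dlx6*, and these in turn *Hand2*, which gives the lower jaw its identity. *Hand1* marks the distal midline, where BMP4 from the ectoderm also sustains *Msx1* and *Msx2*. FGF8 from the proximal oral ectoderm sustains *Barx1* in the field of the future molars and *Lhx6* and *Lhx8* along the oral side, while *Gsc* lies on the aboral side. *Pitx1* is known from the oral ectoderm and the mandibular mesenchyme.

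Promoter sequences are shown for *Gsc* and *Barx1*, the members above the limit on low counts with the widest ranges of CPM between libraries as counted, for *Hand2*, the mandibular regulator whose promoter held a homeodomain core, and for *Lhx8*, which faces another transcript. They are the RefSeq promoters of GRCm38.p6, written 5′ to 3′ on the strand of the gene and ending at the base before the earlier of the RefSeq and GENCODE starts. They lie at chr12:104473331-104473486 for *Gsc* (minus strand), chr13:48662786-48662997 for *Barx1* (plus strand), chr8:57320733-57320982 for *Hand2* (plus strand) and chr3:154330660-154330810 for *Lhx8* (minus strand). Capitals mark TAATTA, the core that many homeodomain proteins of the DLX, MSX and LIM classes bind.
Gsc: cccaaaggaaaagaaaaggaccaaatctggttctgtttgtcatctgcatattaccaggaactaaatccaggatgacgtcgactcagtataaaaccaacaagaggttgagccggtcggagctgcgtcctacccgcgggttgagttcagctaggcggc
Barx1: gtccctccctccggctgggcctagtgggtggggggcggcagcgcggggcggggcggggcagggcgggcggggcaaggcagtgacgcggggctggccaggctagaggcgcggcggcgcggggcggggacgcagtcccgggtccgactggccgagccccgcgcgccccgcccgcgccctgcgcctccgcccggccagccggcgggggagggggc
Hand2: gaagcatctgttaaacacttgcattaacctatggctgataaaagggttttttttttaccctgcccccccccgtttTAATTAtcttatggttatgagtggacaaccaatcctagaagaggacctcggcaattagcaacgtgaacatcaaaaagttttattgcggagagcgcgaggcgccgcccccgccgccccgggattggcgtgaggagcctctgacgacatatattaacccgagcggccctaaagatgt
Lhx8: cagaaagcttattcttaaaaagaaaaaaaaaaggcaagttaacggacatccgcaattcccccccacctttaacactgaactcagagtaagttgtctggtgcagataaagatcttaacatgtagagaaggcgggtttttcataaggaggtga

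TAATTA, which reads the same on both strands, occurred in 4.84% of 32851 promoters of 250 bases before the RefSeq start. Of 9 such promoters of the members, 3 of them from *Lhx6*, 2 held it. No promoter of *Hand1* or *Pitx1* was available. The match of *Hand2* began 175 bases before its start, and the window of *Msx2* with the other match lay wholly inside the GENCODE gene. TAATCC, the core bound by the PITX and GSC class, was searched on both strands as TAATCC and GGATTA and occurred in 6.25% of all promoters and in none of the 9. The stretch shown for *Barx1* had a GC content of 85.4% against a median of 52.4% over all 250-base windows, while that of *Lhx8* had 39.7%. Such matches describe the letters and not the binding of a factor.

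The libraries had 35351031 to 40057435 counts on genes, and 3 counts corresponded to between 0.0777 and 0.0843 CPM. Replicate 3 stood apart by gene length. Relative to the mean of the other libraries, its median log2 CPM was higher by 0.62 over 1028 genes of 1000 to 1500 exonic bp, and it was -0.41 over 6274 genes longer than 5000 bp. Of 8 facial mesenchyme markers, each reached 1 CPM in all libraries, with sums from 1837 to 1957 CPM. Neuron markers summed to 229 CPM in replicate 1 against 13.0 and 29.5 in the others, and eye and pigment markers to 14.5 CPM in replicate 1 against 112 and 229. Markers of the second arch, where Hox genes are on, summed to at most 0.311 CPM. In such bulk samples, fewer cells of a type cannot be told apart from less RNA per cell.

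**Figure D1:**
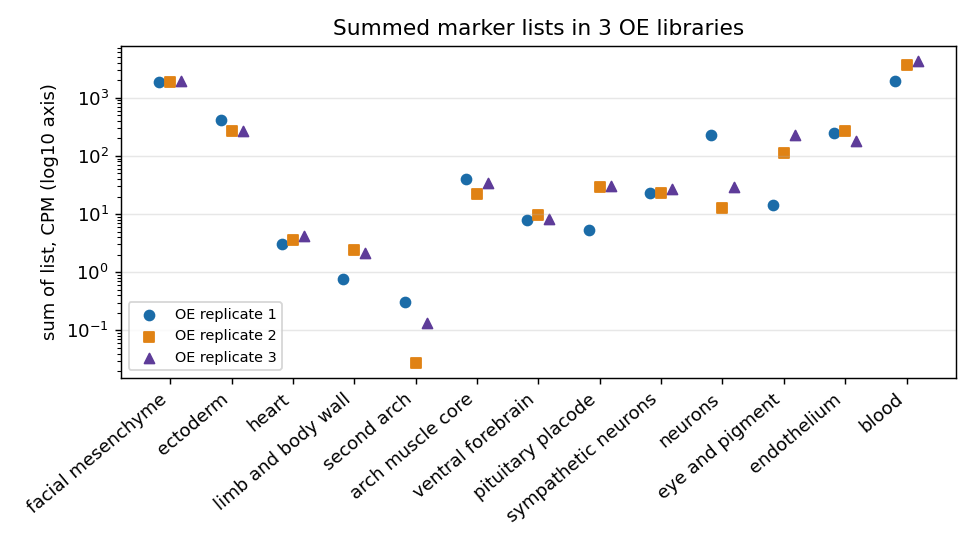
Sum of each marker list in CPM (log10 axis) for the 3 OE libraries, 1 point per library. Facial mesenchyme stayed between 1837 and 1957 CPM, whereas the neuron list was highest in replicate 1 and the eye and pigment list lowest there.

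The members spanned the whole scale of expression. Per kilobase of exon, *Barx1* was highest at 398 ± 232 CPM per kb (SD, n = 3) and *Hand1* lowest at 0.0354 ± 0.0266. Between them followed *Msx1* at 74.0 ± 14.0, *Lhx8* at 67.2 ± 4.87, *Lhx6* at 27.2 ± 4.94, *Pitx1* at 24.2 ± 2.14, *Msx2* at 21.5 ± 0.457, *Gsc* at 5.03 ± 6.22 and *Hand2* at 2.77 ± 0.682 CPM per kb. Among the 14105 protein-coding genes above the limit on low counts, *Barx1* lay at percentile 99.4 by this level, *Msx1* at 95.8 and *Lhx8* at 95.2. *Lhx6*, *Pitx1* and *Msx2* lay between percentiles 82.7 and 86.2, *Gsc* at 51.5 and *Hand2* at 39.2, the value of *Gsc* resting on replicate 3.

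Of the 8 neighbouring pairs in this order, 4 had ranges over the libraries that did not overlap. These were *Barx1* over *Msx1*, *Lhx8* over *Lhx6*, *Msx2* over *Gsc* and *Hand2* over *Hand1*. *Msx1* and *Lhx8* overlapped, since *Lhx8* was higher in replicate 1 (72.5 against 62.2 CPM per kb). *Lhx6* and *Pitx1* overlapped in the same way, and *Pitx1* exceeded *Msx2* in all 3 libraries although their ranges overlapped. *Gsc* lay above *Hand2* in replicate 3 alone, and without replicate 3 *Hand2* came before *Gsc* and *Lhx8* before *Msx1*. With coding length in place of exonic length, *Msx2* came before *Pitx1* and *Hand2* before *Gsc*, and with the length of the longest transcript *Msx2* came before *Pitx1*.

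**Figure D2:**
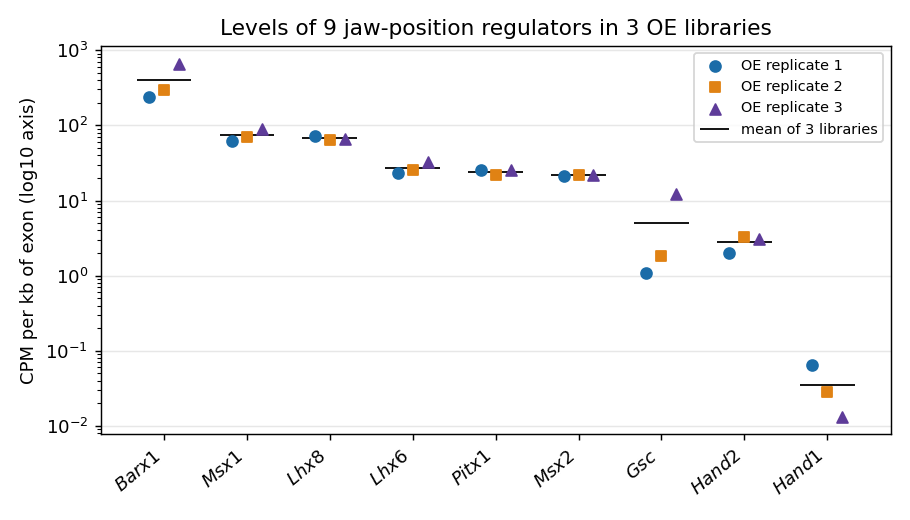
CPM per kb of exon (log10 axis) of the 9 members in the 3 OE libraries, 1 point per library and a bar at the mean. *Barx1* lies between 237 and 663 CPM per kb, *Msx1*, *Lhx8*, *Lhx6*, *Pitx1* and *Msx2* lie at 89.5 or below, and *Hand1* is the lowest in every library.

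The HAND genes came last in the order per kb. *Hand1* (ENSMUSG00000037335, chr11:57828705-57832818, minus strand), the distal midline factor, had 5, 2 and 1 counts in replicates 1, 2 and 3. These corresponded to 0.130 CPM (exact 95% Poisson interval 0.0421 to 0.302), 0.0562 CPM (up to 0.203) and 0.0265 CPM (up to 0.148), where the intervals cover counting error only. The intervals overlapped, so no difference between libraries was detectable for *Hand1* at this depth.

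*Hand2* (ENSMUSG00000038193, chr8:57320983-57324633, plus strand), which patterns the lower jaw and is also needed in the heart and limb, had 180, 270 and 274 counts. It stood at 4.66, 7.59 and 7.27 CPM, lowest in replicate 1. Over the 3 libraries together the ratio of *Hand2* to *Hand1* per kb was 76.9 (exact 95% interval for counting error 38.8 to 179), from 724 and 8 counts. In replicates 1, 2 and 3 the ratio was 30.6 (12.9 to 95.3), 114.7 (31.4 to 952) and 233 (41.4 to 9226), so these intervals overlapped. The mean log2 ratio of 6.55 became 7.35 without replicate 1 and 5.89 without replicate 3. The range of *Hand2* between libraries was 1.62-fold, near the median of 1.67-fold over all 17115 genes.

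*Hand2* is also expressed in the heart, the limb and sympathetic neurons. The 8 heart markers summed to 3.11, 3.54 and 4.11 CPM, with *Nkx2-5*, which defines cardiac progenitors, at 1, 2 and 0 counts. Of 7 limb and body wall markers, 4 were at 0 in every library. The list summed to 0.777, 2.42 and 2.12 CPM, the same order of libraries as for *Hand2*, with *Tbx5*, of the forelimb and heart, at 0, 36 and 27 counts. The part of these tissues in the values of *Hand2* was not tested. Sympathetic neuron markers summed to 22.7, 23.3 and 26.9 CPM, of which *Gata3*, lowest in replicate 1 like *Hand2*, made up 14.9, 20.3 and 23.7, while *Dbh*, the noradrenaline enzyme, had 4, 0 and 2 counts. *Th*, which starts catecholamine synthesis, was highest in replicate 1, at 6.84, 2.87 and 2.68 CPM. *Hand2os1*, a transcript on the opposite strand that covers 19.6% of the exonic bases of *Hand2*, was at 0.855, 1.63 and 0.717 CPM. The kit does not mark strand, so reads of *Hand2* and *Hand2os1* within the shared 461 bases cannot be told apart.

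The signals upstream of *Hand2* were present on the receptor side and low on the ligand side. *Ednra*, the receptor, was at 25.1, 30.4 and 27.5 CPM and differed by 1.21-fold at most. *Edn1*, the ligand, was at 1.11, 0.393 and 0.504 CPM, highest in replicate 1. *Dlx5* stood at 6.63, 6.12 and 13.1 CPM and *Dlx6* at 1.11, 1.01 and 2.31 CPM, both highest in replicate 3, where *Hand2* was not the highest. Per kb, *Dlx5* reached 3.81 ± 1.73 and *Dlx6* 0.622 ± 0.304 CPM (SD, n = 3), against 72.3 ± 9.36 for *Dlx2* and 11.5 ± 2.56 for *Dlx1*. The value of *Dlx2* may include reads of the transgene. Of the 6 *Dlx* genes, 2 ranged by at least 2-fold (33.4% of all genes) and *Dlx4* was the lowest at 0.142 CPM per kb. Of the 7 genes of the endothelin axis, all passed the limit on low counts, 3 ranged by at least 2-fold and 5 were highest in replicate 1. Of all 17115 genes, 33.4% had such a range, and 39.6% were highest in replicate 1, 17.2% in replicate 2 and 43.2% in replicate 3. When a fitted trend on gene length and GC was subtracted from each library, 1 of the 7 endothelin genes and 1 of the 6 *Dlx* genes ranged by at least 2-fold, against 22.9% of all genes. *Gna11*, a G protein subunit, was the highest of these at 32.0 CPM per kb and *Edn1* the lowest at 0.314.

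*Gsc* (ENSMUSG00000021095, chr12:104471209-104473330, minus strand), the aboral factor that shapes the jaw and middle ear, had 53, 82 and 583 counts. It stood at 1.37, 2.30 and 15.5 CPM, so replicate 3 lay 8.47-fold above the mean of the others on the log2 scale with a prior count of 2. A departure at least as large in replicate 3 was found in 50 of 17115 genes, or 0.292%. Once the dependence of each library on gene length and GC content (the length and GC trend) had been fitted and subtracted, the departure was 4.58-fold, and 0.731% of genes had as much. The mean over the libraries was 6.38 CPM, and 1.90 CPM without replicate 3. A single library thus set the level of *Gsc*.

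The start of *Gsc* lies 1 bp from that of *Gm10000*, a noncoding transcript running the other way from the same promoter. *Gm10000* had 3, 7 and 5 counts and was not highest in replicate 3. By likeness of profile over the 3 libraries, among 118 listed genes averaging 100 counts or more, the nearest to *Gsc* were *Osr1* (distance 0.74 in log2 CPM) and *Osr2* (1.28), odd-skipped factors of facial and palatal mesenchyme. *Osr1* was at 3.50, 4.89 and 19.1 CPM and *Osr2* at 2.15, 2.30 and 6.90 CPM. The pigment genes *Pmel* (0.363, 5.98 and 71.8 CPM) and *Dct* (0.207, 1.55 and 13.1 CPM) were highest in replicate 3 as well, and their part in the values of *Gsc* and *Barx1* was not tested. With the length and GC trend removed, the range between libraries was 5.57-fold for *Gsc*, 3.48-fold for *Osr1*, 2.75-fold for *Osr2*, 1.65-fold for *Dlx5* and 2.08-fold for *Dlx6*.

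**Figure D3:**
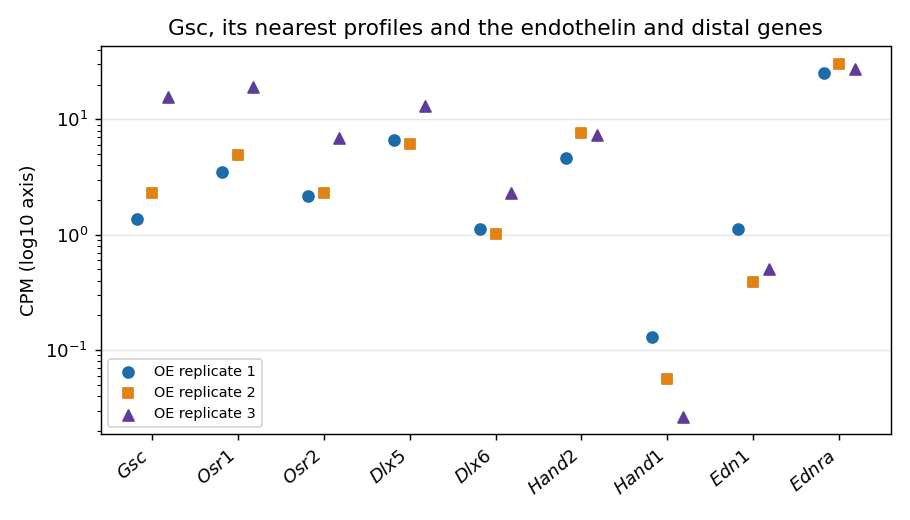
CPM (log10 axis) in the 3 OE libraries, 1 point per library, of *Gsc*, its nearest profiles *Osr1* and *Osr2*, and genes of the endothelin and distal programme. *Gsc*, *Osr1*, *Osr2*, *Dlx5* and *Dlx6* are highest in replicate 3, while *Hand2* is lowest in replicate 1 and *Edn1* highest there.

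*Barx1* (ENSMUSG00000021381, chr13:48662998-48666507, plus strand), which directs the molar field, was the most abundant member. It had 12806, 14559 and 34967 counts, or 332, 409 and 928 CPM, and its rank by mean CPM was 230 in the whole table. The share of *Barx1* in the counts of all 9 members was 34.5%, 39.0% and 54.8%. Replicate 3 lay 2.52-fold above the mean of the others. With an exonic length of 1399 bp *Barx1* is short, and its departure was 1.40-fold with the length and GC trend removed. A departure of at least the counted size was found in 6.13% of genes, and of at least the size after removal in 22.2%.

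As counted, the nearest profiles to *Barx1* were those of *Twist2*, a mesenchymal bHLH gene at 3.76, 5.03 and 11.0 CPM (distance 0.081), and *Osr2* (0.27). With the length and GC trend removed, *Twist2* ranged by 2.51-fold and *Osr2* by 2.75-fold, more than *Barx1* (1.46-fold). *Barx2*, its paralogue, was at 8.99, 10.1 and 15.4 CPM. *Fgf8*, the ectodermal signal known to sustain *Barx1*, had 44.2, 41.0 and 46.2 CPM, a range of 1.13-fold against 2.80-fold for *Barx1*. The ranges were 1.85-fold for *Fgf8* and 1.46-fold for *Barx1* with the length and GC trend removed, so the order of the ranges turned around. Of the FGF feedback and target genes, *Etv4* ranged by 2.21-fold (1.56-fold with the trend removed) with its highest value in replicate 3 (39.8, 54.8 and 88.0 CPM), whereas *Etv5* was lowest there (107, 85.8 and 52.1 CPM). In all, 9 of 9 FGF input genes passed the limit on low counts, 3 ranged by at least 2-fold (33.4% of all genes), 5 were highest in replicate 1 (39.6%) and 4 in replicate 3 (43.2%). *Dusp6*, a feedback phosphatase, was the highest at 42.3 CPM per kb and *Fgf9* the lowest at 0.802.

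**Figure D4:**
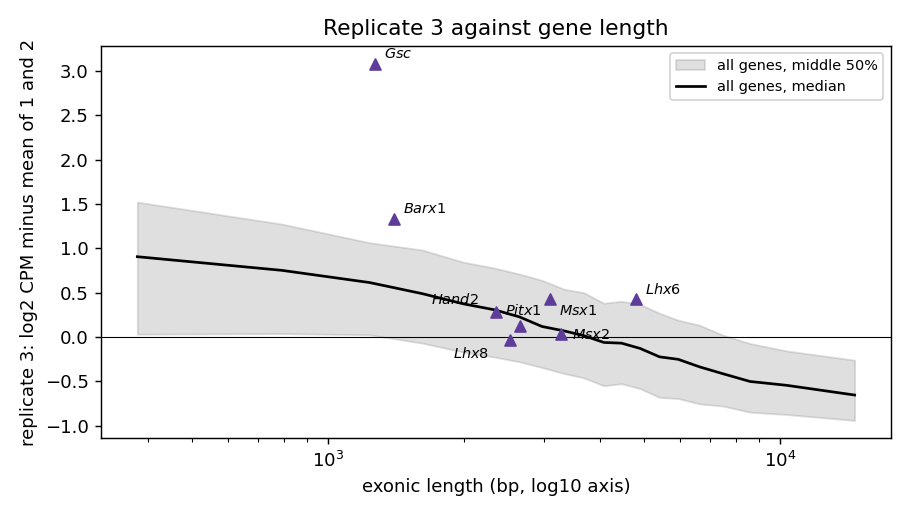
Log2 CPM of replicate 3 minus the mean of replicates 1 and 2 against exonic length (log10 axis). The line and band give the median and the middle 50% of all genes in 20 length bins and triangles the 8 members above the limit on low counts. *Gsc* (3.08) and *Barx1* (1.33) are the shortest of these members and lie above the band, as does *Lhx6* (0.43) by a small margin.

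The oral LIM-homeodomain genes were steadier. *Lhx8* (ENSMUSG00000096225, chr3:154306294-154330659, minus strand), needed for the palate and teeth, had 7084, 5670 and 6306 counts. At 184, 159 and 167 CPM it varied by 1.15-fold and was the only one of the 8 members above the limit on low counts that was highest in replicate 1. *Lhx6* (ENSMUSG00000026890, chr2:36081953-36105408, minus strand), its partner on the oral side, had 4310, 4367 and 5922 counts. At 112, 123 and 157 CPM it was highest in replicate 3, by 1.34-fold over the mean of the others. Per kb, *Lhx8* exceeded *Lhx6* by 3.12-fold, 2.46-fold and 2.02-fold in replicates 1, 2 and 3, a log2 ratio of 1.32 ± 0.31 (SD, n = 3). With coding length the log2 ratio was 0.49.

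*AI606473*, a noncoding transcript that starts 162 bp from *Lhx8* on the other strand, varied more. It had 1712, 2146 and 4684 counts, or 44.4, 60.3 and 124 CPM, a range of 2.80-fold. With the length and GC trend removed the range was 2.46-fold, against 1.25-fold for *Lhx8*. No exonic base is shared between *Lhx8* and *AI606473*. Of the other listed LIM-homeodomain genes, *Isl1*, *Isl2*, *Lhx1*, *Lhx2*, *Lhx5* and *Lhx9* ranged by 2.38-fold to 20.6-fold, of which *Lhx9* did not differ beyond sampling noise (16, 5 and 9 counts), and *Lhx3* and *Lhx4* were below the limit on low counts. *Isl1*, of sensory and motor neurons, was at 37.0, 11.2 and 5.31 CPM, *Isl2* at 9.17, 4.75 and 3.82 CPM and *Lhx1* at 2.69, 0.225 and 0.0796 CPM. *Lhx2*, of the eye field, was at 7.98, 41.9 and 33.7 CPM. The part of the neuron and eye markers in these values was not tested.

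Both *Lhx6* and *Lhx8* are also known from the ventral forebrain. Its 7 markers summed to 8.03, 9.47 and 8.26 CPM, and *Nkx2-1*, which defines that region, was at 0, 11 and 27 counts. The 7 listed cofactors of LIM and bHLH factors were all above 1 CPM in every library. *Ldb1*, which bridges LIM-homeodomain proteins, was at 336, 387 and 619 CPM, and *Tcf3*, an E protein partner of HAND and TWIST, at 665, 780.4 and 985 CPM. Of the 7 cofactors, 6 differed between libraries by more than sampling noise (81.5% of all genes) and 1 ranged by at least 2-fold (33.4%). *Tcf3* was the highest at 201 CPM per kb and *Ssbp2* the lowest at 6.59. A small RNA gene within *Lhx6*, *Gm27953*, had 0, 1 and 0 counts.

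*Msx1* (ENSMUSG00000048450, chr5:37820485-37824583, minus strand), required for tooth and palate growth, had 7434, 7757 and 10439 counts, or 193, 218 and 277 CPM. Replicate 3 was the highest, by 1.35-fold over the mean of the others. With the length and GC trend removed this ratio was 0.992. The nearest profile to *Msx1* was that of *Lhx6*, and the reverse also held (distance 0.031). Next came *Tcf3* for *Msx1* (0.039) and *Prrx2*, a mesenchymal homeobox gene, for *Lhx6* (0.058). *Msx2* (ENSMUSG00000021469, chr13:53466884-53473074, minus strand), its paralogue in skull and tooth development, had 2663, 2529 and 2709 counts. At 69.0, 71.1 and 71.9 CPM its libraries were nearly level.

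As counted, *Msx2* was the steadiest member, with a CV of 2.12%. With the length and GC trend removed, *Msx1* had the narrower range, 1.07-fold against 1.09-fold for *Msx2*. Of the 500 genes nearest to *Msx2* in mean level, 0.6% had a smaller SD of log2 CPM as counted. It was also the only one of the 8 members above the limit on low counts whose counts did not differ beyond sampling noise (chi-square test over the 3 libraries, Benjamini-Hochberg adjusted p = 0.324 over all genes). This depended on the scaling and the libraries, as 8 members were past that threshold with library totals as the only scaling and 6 without replicate 1 or without replicate 2. Per kb, *Msx1* exceeded *Msx2* by 2.96-fold, 3.25-fold and 4.08-fold, a log2 ratio of 1.76 ± 0.24 (SD, n = 3). *Msx3*, a gene of the dorsal neural tube, had 13, 0 and 21 counts.

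Among the BMP inputs to the *Msx* genes, *Bmp4* stood at 35.0, 43.3 and 46.3 CPM, with the highest value in replicate 3. The direct BMP responders *Id1* and *Id3* were at 160.0, 159 and 196 CPM and at 262, 275 and 287 CPM, highest in replicate 3, while *Id2* was lowest there at 146, 160 and 132 CPM. *Bmpr1a*, a BMP receptor with 6351 exonic bp, was lowest in replicate 3 with 153, 118 and 67.6 CPM, and its range of 2.27-fold was 1.43-fold with the length and GC trend removed. All 13 genes of the list differed between libraries beyond sampling noise, against 81.5% of all genes. Of the 13, 3 ranged by at least 2-fold, against 33.4% of all genes, or 1 with the length and GC trend removed, against 22.9%, and 7 were highest in replicate 1, against 39.6%. Replicate 3 was the lowest library for 9 of the 13 and for 45.6% of all genes. *Id3* was the highest at 153 CPM per kb and *Bmp2*, at 3.21, 1.83 and 0.982 CPM, the lowest at 0.565 CPM per kb.

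*Pitx1* (ENSMUSG00000021506, chr13:55825051-55836192, minus strand), which marks the oral ectoderm, the mandible and the hindlimb, had 2594, 2055 and 2559 counts. At 67.2, 57.7 and 67.9 CPM it varied by 1.18-fold, with the lowest value in replicate 2. With the length and GC trend removed, the range was 1.53-fold and replicate 3 was the lowest. Its paralogue *Pitx3*, of lens and midbrain, had 1, 19 and 38 counts. The antisense transcript *Gm47071* covers 6.21% of the exonic bases of *Pitx1* and was at 9.59, 9.95 and 9.82 CPM. *Gm28760*, on the same strand, covers 4.07% and was at 1.04, 0.674 and 0.292 CPM. Reads in the shared stretches cannot be told apart from those of *Pitx1*.

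*Pitx1* is also expressed in ectoderm, pituitary and hindlimb. The 9 ectoderm markers summed to 409 CPM in replicate 1 against 267 and 264 in the others, with *Epcam* at 66.6, 45.8 and 30.3 CPM. Of the 9, 5 were lowest in replicate 3, 2 in replicate 1, and 2, the keratin genes *Krt18* (86.7, 65.5 and 108 CPM) and *Krt8* (83.2, 49.3 and 59.2 CPM), in replicate 2 as *Pitx1* was. Of all genes, 39.3% were lowest in replicate 1, 15.1% in replicate 2 and 45.6% in replicate 3. The part of ectoderm in the values of *Pitx1* was not tested. Among the pituitary placode markers, *Lhx3* had 7, 3 and 0 counts, whereas *Six6*, shared with the eye field, was at 3.89, 28.3 and 29.9 CPM. *Tbx4*, of the hindlimb, had 26, 50 and 53 counts. The nearest profile to *Pitx1* among the listed genes was that of *Fgf8* (distance 0.081), followed by *Ssbp2* (0.12).

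Across the members, 7 of the 8 above the limit on low counts differed between libraries by more than sampling noise, where 81.5% of all 17115 genes did. A range of at least 2-fold was reached by *Gsc* (10.9-fold) and *Barx1* (2.80-fold), or 2 of 8 members against 33.4% of all genes. With the length and GC trend removed, *Gsc* remained past 2-fold and *Barx1* did not (1.46-fold), against 22.9% of all genes. Without replicate 3 neither was. Replicate 3 was the highest library for 6 of 8 members and for 43.2% of all genes, *Hand2* being highest in replicate 2 and *Lhx8* in replicate 1. Removal of the trend left 4 of 8 members highest there (*Gsc*, *Barx1*, *Lhx6* and *Msx2*), against 43.6% of all genes. The median range of the 8 members was 1.42-fold, against 1.67-fold over all genes. With the length and GC trend removed these medians were closer, at 1.36-fold and 1.46-fold. These comparisons are between libraries of a single genotype, with sampling noise as the only reference.

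**Figure D5:**
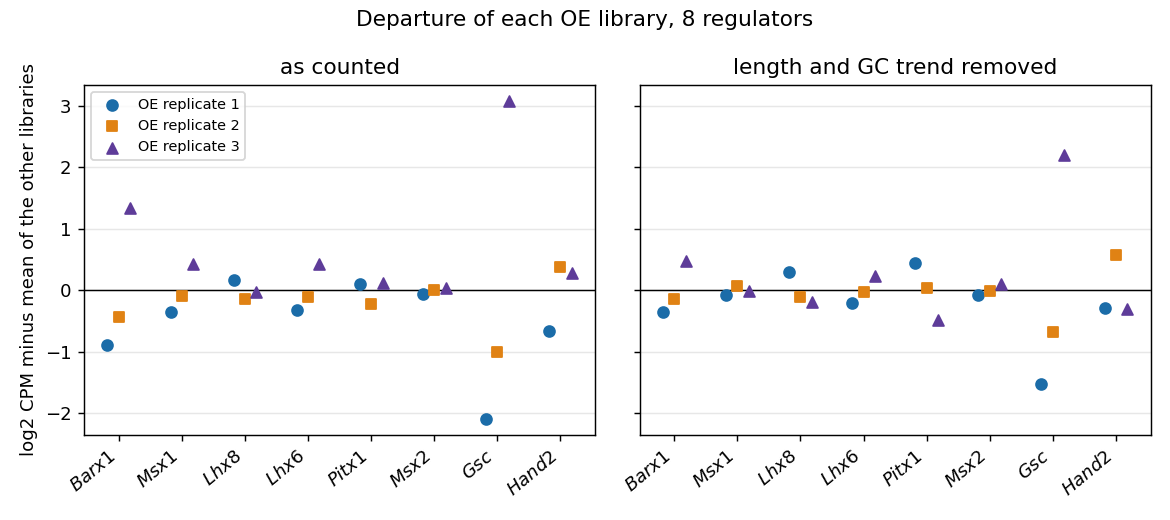
Log2 CPM of each OE library minus the mean of the others for 8 members, as counted (left) and with the length and GC trend removed (right), 1 point per library. *Gsc* in replicate 3 goes from 3.08 to 2.19 and *Barx1* from 1.33 to 0.48, while *Msx2* stays near 0 in both.

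The regulators of maxillary and proximal identity gave the setting for these values. *Nr2f1*, a COUP-TF factor of the maxillary process, was the highest of the 8 per kb at 47.0 CPM per kb, and *Pou3f4* the lowest at 0.322. None of the 8 ranged by 2-fold, against 33.4% of all genes, and *Pou3f4* did (2.20-fold) with the length and GC trend removed. Of the 8, 7 were highest in replicate 1, while *Nr2f1* was highest in replicate 3. Replicate 1 was the highest library for 39.6% of all genes and for 59.9% of the 6274 genes longer than 5000 bp. The neuron and ectoderm marker sums were highest in replicate 1 too. The part of gene length and of these tissues in the count of 7 was not tested. Of the members, *Barx1*, *Msx1* and *Lhx8* had a higher mean per kb than *Nr2f1*. *Pou3f3*, a maxillary POU factor, was at 39.7, 25.6 and 36.6 CPM.

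The remaining listed jaw regulators were all above the limit on low counts. Of these 18 genes, 5 ranged by at least 2-fold, against 33.4% of all genes. With the length and GC trend removed the count was also 5, against 22.9%. Replicate 3 was the highest library for 9 of the 18 (43.2% of all genes), replicate 2 for 6 (17.2%) and replicate 1 for 3 (39.6%). *Tbx2*, a T-box factor, was the highest per kb at 168 CPM per kb, below *Barx1* alone among the members, and *Nkx3-2*, of the jaw joint, the lowest at 0.312. Among 15 paralogues of the members, 12 were above the limit and 9 ranged by at least 2-fold, against 33.4% of all genes. The highest was *Twist1* at 230 CPM per kb and the lowest *Lhx4* at 0.00602, while *Gsc2* had 3, 2 and 2 counts.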

How the data were processed

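The authors mapped 150 bp paired-end reads to mm10 with STAR 2.7.3a and deposited unnormalized whole-number read counts, 1 file a library. The submitters' processing notes also name HTSeq 0.12.4. The annotation release and strand setting are not given in the sources used here. Rows naming no gene (14.2% to 16.4% of counted reads) were left out of library sizes.

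Identifiers were matched without version to GENCODE M21 (GRCm38), where 55141 of 55401 had a row. CPM used edgeR 4.0.16 with TMM, and log2 CPM a prior count of 2. CPM per kb used the union of exons. Sampling noise was tested by chi-square on scaled library sizes over genes averaging 10 counts or more, Benjamini-Hochberg adjusted at 0.05. The length and GC trend was a smooth fit per library (mgcv 1.9.3). DESeq2 1.42.0 gave alternative size factors. R 4.3.3, Python 3.11.15, pandas 2.3.3 and scipy 1.17.1 were used, and the steps were tested on simulated data.

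The members and lists were chosen with earlier results of these data known. The genes named were all members, the highest and lowest gene of each pathway list, set regulators and paralogues, transcripts overlapping a member or starting within 5000 bp of it, and the 2 nearest profiles of each member by Euclidean distance over 3 libraries. Marker genes and further list members, such as *Etv4* and *Bmpr1a*, were named after their values were seen. Some listed genes are not reported here.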

Additional observations from a re-analysis of the deposited data

How the results depend on the processing

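Of 90 alternative values over 16 results, 81 kept within the spread between replicates or within 1.5 times a count, and 9 moved. No log2 ratio changed sign, and CPM and counts cannot. The spread comes from the same 3 libraries, so a mean with 1 of them left out tends to stay within it. Within that wide spread, *Gsc* went from 6.38 to 1.90 CPM without replicate 3 and *Hand1* from 0.0708 to 0.0403 CPM without replicate 1. Leaving out each replicate in turn gave a median over the members of 69.6 to 72.2 CPM (70.7 with all libraries), 6 to 7 members beyond sampling noise, 0 to 2 members with a 2-fold range and 5 to 6 neighbouring pairs with ranges apart, against 4. The count of 0 was without replicate 3, which also took the mean of *Barx1* from 556 to 382 CPM. With the length and GC trend removed, 1 member had a 2-fold range. With the longest transcript or with coding length, 7 of the 8 neighbouring pairs had ranges apart. The log2 ratio of *Msx1* to *Msx2* was then 2.02 and 1.50, and that of *Lhx8* to *Lhx6* 0.49 with coding length, since the lengths themselves differ. With library totals as the only scaling, 8 members differed beyond sampling noise. No paired analysis was possible because the labels give 1 group. With 3 libraries of that group, the values carry no test of the genotype, and the depth limits *Hand1* most.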

Other observations

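Several homeobox genes of the facial mesenchyme had their lowest level in replicate 1. *Alx1* was at 21.4, 57.8 and 47.8 CPM in replicates 1, 2 and 3, *Alx4* at 70.1, 95.6 and 90.5 CPM and *Pax3* at 3.42, 6.12 and 7.30 CPM, each lowest in replicate 1. *Hand2* shared this order of libraries in part, and after *Hbb-bh1* (378, 663 and 618 CPM), an embryonic globin gene, *Alx4* was its nearest profile (distance 0.21). The eye and pigment markers were also lowest in replicate 1, and their part in the values of *Alx1* and *Alx4* was not tested.

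Arch muscle core markers summed to 39.9, 22.5 and 34.0 CPM, with *Tbx1* at 30.1, 17.8 and 27.5 CPM. Endothelial markers summed to 243, 265 and 178 CPM, and blood markers to 1947, 3633 and 4262 CPM, lowest in replicate 1. Of the remaining profiles, *Lhx8* lay nearest to *Spry1*, an FGF feedback gene (distance 0.013), and then to *Ssbp2* (0.096). *Msx2* lay nearest to *Col3a1*, a mesenchymal collagen gene (distance 0.0045), and then to *Ssbp3* (0.044). These distances rest on 3 libraries each, with values as counted.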
